A study of Sus scrofa with 599 samples.

Results

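Backfat was compared between obese pigs at the end of weight gain (WG) and pigs that had then lost weight (WL). The tissue was the upper layer of backfat (ULB), a subcutaneous fat depot, and all pigs were female Bama pigs about 2 years old at the start. The diet of WG pigs was high in fat and lasted 22 weeks. WL pigs had the same diet first and were then moved, at random, to 12 weeks of strong caloric restriction, at 10% of the daily intake of the normal diet. NC pigs, on a normal diet throughout, gave the background values. Members were taken by the sample labels: 38 WG and 10 WL libraries of RNA-seq, 48 of the 236 in the series, and 39 WG and 10 WL libraries of Hi-C, 49 of 240. Another 5 NC libraries of each kind were set beside them. WG and WL pigs were different animals, and WL pigs were killed later and were older, so that the diet cannot be told apart from the time of sampling.

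White fat takes up glucose and fatty acids when energy is in surplus and stores them as triglyceride in a lipid droplet coated by perilipins. De novo lipogenesis makes fatty acids from citrate that leaves the mitochondrion: ATP citrate lyase and acetyl-CoA carboxylase feed fatty acid synthase, the pentose phosphate pathway and malic enzyme supply its NADPH, and desaturases and elongases finish the chain. In fasting, catecholamines act through beta-adrenergic receptors and cyclic AMP on hormone-sensitive lipase and ATGL, which release glycerol and fatty acids. In pigs the fat itself, rather than the liver, is the main site of fatty acid synthesis.

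Estimated counts on protein-coding genes (PCGs) ran from 13.2 to 22.3 M in WG (median 17.7 M), from 10.9 to 21.7 M in WL (median 15.6 M) and from 8.23 to 22.9 M in NC. The 7 adipocyte markers were all detected, and their summed level in TPM (transcript abundance scaled to library and gene length) was 16235 to 31191 in WL against 8403 to 31860 in WG. Mesothelial markers, which would mark visceral fat, had a median sum of 0.138 TPM in WL and a maximum of 1.71 TPM. In the low and high WG sets described below the medians were 0.239 and 0.294 TPM and the maxima 0.789 and 26.2 TPM. WT1 reached 23.8 TPM in WG around a median of 0.154 TPM, and a share of visceral tissue in such a library was not tested. Skeletal muscle markers summed to 30.5 to 71.0 TPM in WL, most of it PYGM (median 38.3 TPM), while CKM, ACTA1 and NEB had WL medians of 0.601, 0.323 and 0.517 TPM. The muscle markers summed to 12.85 to 67.3 TPM in the low WG set and 98.9 to 174 TPM in the high set, above every WL library. Those of red blood cells summed to 489 to 2820 TPM in WL and to 61.1 to 6026 TPM in WG, and those of mast cells and neutrophils to 99.9 to 289 TPM and 66.1 to 832 TPM. The part of these cell types in the results was not tested, and in whole tissue fewer cells of a type and less RNA per cell cannot be told apart.

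The WG libraries fell into 2 sets that no label describes. In 18 of them mitochondria-encoded genes took 13.5 to 25.0% of summed TPM (median 21.1%), and in the other 20 they took 1.23 to 6.60% (median 2.06%). All 10 WL libraries lay in the low range, at 0.623 to 2.94%, and NC had 3 libraries in the high range and 2 in the low. By pig number the WG sets were nearly the same in the other fat tissues: 37 of 38 numbers fell in the same set in greater omentum (GOM), 30 of 30 in mesenteric fat (MAD) and 31 of 33 in retroperitoneal fat (RAD). The first principal component, with 41.1% of the variance, separated these sets, and the second, with 7.8%, separated WL from WG. PCGs took 86.1 to 96.3% of summed TPM in WG (median 95.1%) and 78.6 to 94.5% in WL (median 90.8%), with 2 of 38 WG and 6 of 10 WL libraries under 92%. With this share as a covariate 899 genes were called, among them 245 of the 439 genes called higher without it and 355 of the 668 called lower. Counts of each list are therefore given against all 38 WG libraries and against the 20 of the low set, which was chosen after seeing the data. Values of a gene are against all WG libraries unless the low set is named.

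**Figure D1:**
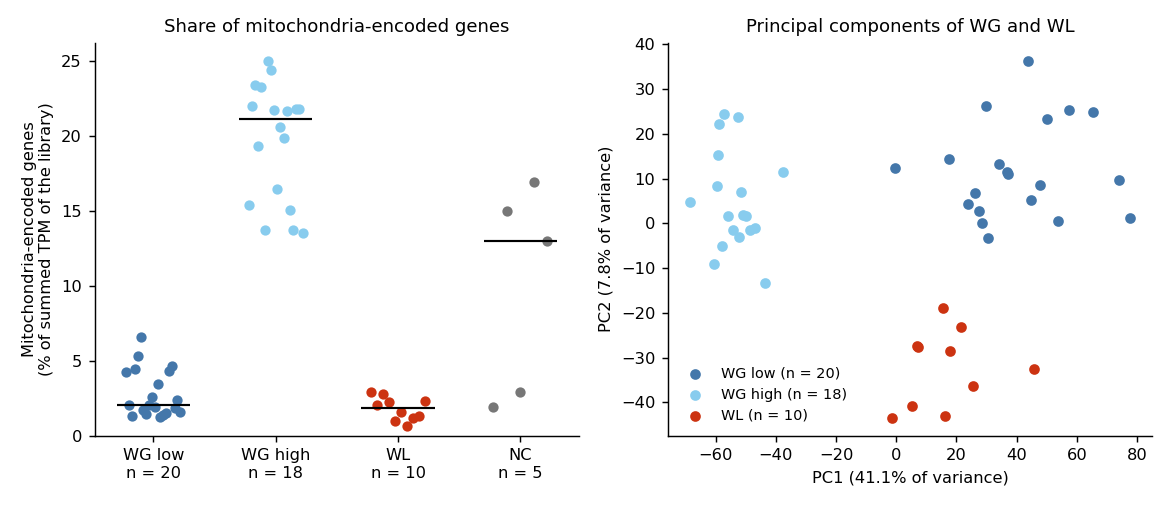
Left, the share of summed TPM on mitochondria-encoded genes (percent) in each backfat library of the low and high WG sets, WL and NC, with bars at the medians. Right, principal components 1 and 2 of the WG and WL libraries, with 41.1% and 7.8% of the variance. The WL libraries sit with the low WG set on the left (medians of 1.84% and 2.06%) and apart from both WG sets on component 2.

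Of 13633 genes tested with edgeR, 439 were higher in WL (3.22%) and 668 lower (4.9%) together 8.12%. A gene is called here at a fold change above 1.5 and an adjusted p below 0.05. Against the low set, 897 of 13630 were higher (6.58%) and 936 lower (6.87%), together 13.4%. In both fits 257 genes were called higher (1.89%) and 391 lower (2.87%). The median log2 fold change of all genes was -0.02 against all WG libraries and 0.02 against the low set. By fold change, among called genes with a symbol and a mean of at least 5 TPM in either group, the 10 highest were COL4A4, PCK1, NRIP3, ADRB1, SORCS1, CCNP, C7, GARIN1A, NANOS1 and AQP3. NRIP3 was at 1.56 to 47.7 TPM in WG (median 12.6) and 12.48 to 307 TPM in WL (median 29.5), with 4 of 10 WL libraries above all of WG (log2 fold change 2.22 ± 0.33 SE, adjusted p = 2.4e-06). The cyclin-like gene CCNP was at medians of 1.33 and 12.8 TPM, GARIN1A at 4.03 and 14.8 TPM, and NANOS1 at 1.28 and 7.61 TPM. The 10 lowest were the mitochondria-encoded ND2, ND3, ND4, ND5, CYTB and ATP6, the fructose carrier SLC2A5, FASN, ZNF599 and NR1D1. Only SLC2A5, FASN and ZNF599 of these were also called against the low set. Of the 111 genes named here with a call, 89 had the same call against the low set. The others were those 6 mitochondria-encoded genes, NR1D1, SREBF1, IDH1, DGAT1, G0S2, HILPDA, ADIPOQ, EGR3, SP2, CRTC2, ATN1, BAG3, RBPMS2, TCF7L2, FAM222B and ACTMAP. The counts of each list below are to be read against 3.22% higher and 4.9% lower of all genes, and 6.58% and 6.87% against the low set.

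The genes of de novo lipogenesis fell together. Of 21 tested, 17 were called lower and 1 higher, against backgrounds of 4.9% and 3.22% of all genes, and 15 were lower in both fits. Their median log2 fold change was -1.02, and -1.01 against the low set. Summed over the list, WL libraries held 4595 to 8661 TPM (median 6418) and WG libraries 8806 to 36153 TPM (median 15759), so that every WL library lay below every WG library. In NC the sum was 3753 to 22421 TPM. Without any single WL library, 17 genes were again called lower.

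FASN, which encodes fatty acid synthase and lies at chr12:922405-937560, was at 167 to 3192 TPM in WG (median 1039) and 9.01 to 279 TPM in WL (median 40.7). Only WL replicate 1 reached into the WG range. The gene was 15.5-fold lower in WL (log2 fold change -3.96 ± 0.50 SE, adjusted p = 9.6e-08), and its log2 fold change was -3.52 against the low set. The 5 NC libraries were at 555, 743, 939, 1866 and 2195 TPM, all above WL. Its supplier of acetyl-CoA, ATP citrate lyase (ACLY), was at 116 to 1446 TPM in WG (median 275) and 63.5 to 120 TPM in WL (median 85.3), a log2 fold change of -1.99 ± 0.30 (adjusted p = 3.0e-06). For ACLY, NC libraries at 80.3, 97.3, 107, 147 and 193 TPM overlapped WL. Acetyl-CoA carboxylase, ACACA, had a smaller difference, with medians of 226 and 154 TPM and a log2 fold change of -0.88 ± 0.20 (adjusted p = 0.0012). ACSS2, which makes acetyl-CoA from acetate, was at medians of 92.6 and 39.7 TPM (log2 fold change -1.52 ± 0.22, adjusted p = 2.3e-06), with 9 of 10 WL libraries below all WG libraries. The mitochondrial citrate carrier SLC25A1 was also lower, by -0.87 ± 0.20 (adjusted p = 0.0011).

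The enzymes that supply NADPH moved with the synthase. Malic enzyme ME1 was at 141 to 1127 TPM in WG (median 371) and 29.5 to 110 TPM in WL (median 77.4), without overlap, and at 159, 210, 292, 406 and 441 TPM in NC. Its log2 fold change was -2.76 ± 0.29 (adjusted p = 1.3e-09), and -2.60 against the low set. Transketolase (TKT) was at 232 to 862 TPM in WG and 123 to 261 TPM in WL, with 9 of 10 WL libraries below all of WG (-1.47 ± 0.16, adjusted p = 3.9e-09). PGD fell by 0.76 on the log2 scale (adjusted p = 0.00019) and TALDO1 by 0.67 (adjusted p = 0.0055), and both were lower against the low set too. IDH1, a cytosolic source of NADPH, was the member called higher (0.60 ± 0.20, adjusted p = 0.032). That call was lost against the low set (0.18, adjusted p = 0.37) and without WL replicate 2, 4, 5 or 7.

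Both elongases named here and the desaturase SCD were lower, while the desaturases FADS1 (0.31, adjusted p = 0.25) and FADS2 (-0.17, adjusted p = 0.53) were not called. ELOVL6, which extends palmitate to stearate, was at 248 to 1860 TPM in WG (median 661) and 109 to 226 TPM in WL (median 165), without overlap (log2 fold change -2.28 ± 0.22, adjusted p = 4.0e-10). The stearoyl-CoA desaturase gene SCD, among the most abundant transcripts of this tissue, was at 3706 to 21170 TPM in WG (median 8821) and 531 to 5188 TPM in WL (median 2727). It fell by 2.03 ± 0.29 on the log2 scale (adjusted p = 1.8e-06), and 8 of 10 WL libraries lay below all WG libraries. ELOVL5, which acts on polyunsaturated chains, differed less (-0.65 ± 0.15, adjusted p = 0.0011). THRSP and MID1IP1, a related pair of small proteins tied to lipogenesis, were at log2 fold changes of -1.02 ± 0.29 (adjusted p = 0.012) and -0.93 ± 0.15 (adjusted p = 6.4e-06). THRSP had a median of 1336 TPM in WG, 797 TPM in WL and 619 TPM in NC.

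The transcription factors that drive this program were less uniform than the enzymes. MLXIPL, which encodes the glucose-sensing factor ChREBP, was at medians of 24.7 TPM in WG, 12.4 TPM in its low set and 8.62 TPM in WL. It was called lower in both fits, at -1.94 ± 0.41 (adjusted p = 0.00061) and -0.71 ± 0.26 (adjusted p = 0.031). SREBF1, whose product responds to insulin, was lower against all WG libraries (-1.28 ± 0.40, adjusted p = 0.020) and at -0.15 ± 0.29 against the low set (adjusted p = 0.70).

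Promoter letters were searched for CACGTG, the E-box core that both factors can bind and which reads alike on both strands, and for CCAAT, a site of NF-Y that reads ATTGG on the other strand, in the 250 bases before each start in RefSeq (Sscrofa11.1). Of 10716 tested genes with such a window, 801 held CACGTG (7.47%) and 3507 held CCAAT (32.7%). Of the 21 lipogenesis genes, 4 held CACGTG (19.05%) and 11 held CCAAT (52.4%). The windows of 3 lipogenesis genes and of the fructose carrier SLC2A5 are shown because these genes fell together while their windows differed in these letters. Capitals mark the matches, and a match is a description of the letters only.
SCD (chr14:111461310-111461559, plus strand): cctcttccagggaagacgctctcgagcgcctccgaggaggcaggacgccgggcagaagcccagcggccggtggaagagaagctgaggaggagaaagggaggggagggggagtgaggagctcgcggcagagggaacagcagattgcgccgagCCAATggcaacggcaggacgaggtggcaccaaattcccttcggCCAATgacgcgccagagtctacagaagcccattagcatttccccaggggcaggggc
ELOVL6 (chr8:112038420-112038669, plus strand): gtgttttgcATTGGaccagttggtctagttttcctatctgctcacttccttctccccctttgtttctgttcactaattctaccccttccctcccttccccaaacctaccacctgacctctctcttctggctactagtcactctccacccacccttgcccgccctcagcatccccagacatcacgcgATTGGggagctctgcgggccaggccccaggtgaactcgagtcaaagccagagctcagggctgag
MID1IP1 (chrX:34763110-34763359, plus strand): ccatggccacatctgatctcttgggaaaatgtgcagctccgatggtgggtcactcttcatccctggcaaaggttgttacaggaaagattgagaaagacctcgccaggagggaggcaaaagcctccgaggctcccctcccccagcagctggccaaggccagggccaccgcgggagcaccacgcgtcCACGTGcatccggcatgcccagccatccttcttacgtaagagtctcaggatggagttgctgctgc
SLC2A5 (chr6:69535795-69536044, minus strand): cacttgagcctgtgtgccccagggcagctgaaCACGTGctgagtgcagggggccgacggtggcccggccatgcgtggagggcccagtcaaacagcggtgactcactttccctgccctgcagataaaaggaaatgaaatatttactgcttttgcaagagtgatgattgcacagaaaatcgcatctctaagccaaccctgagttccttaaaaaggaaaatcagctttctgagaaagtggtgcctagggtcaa
SCD and ELOVL6 each held 2 CCAAT boxes and no CACGTG. MID1IP1 and SLC2A5 each held 1 CACGTG and no CCAAT.

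**Figure D2:**
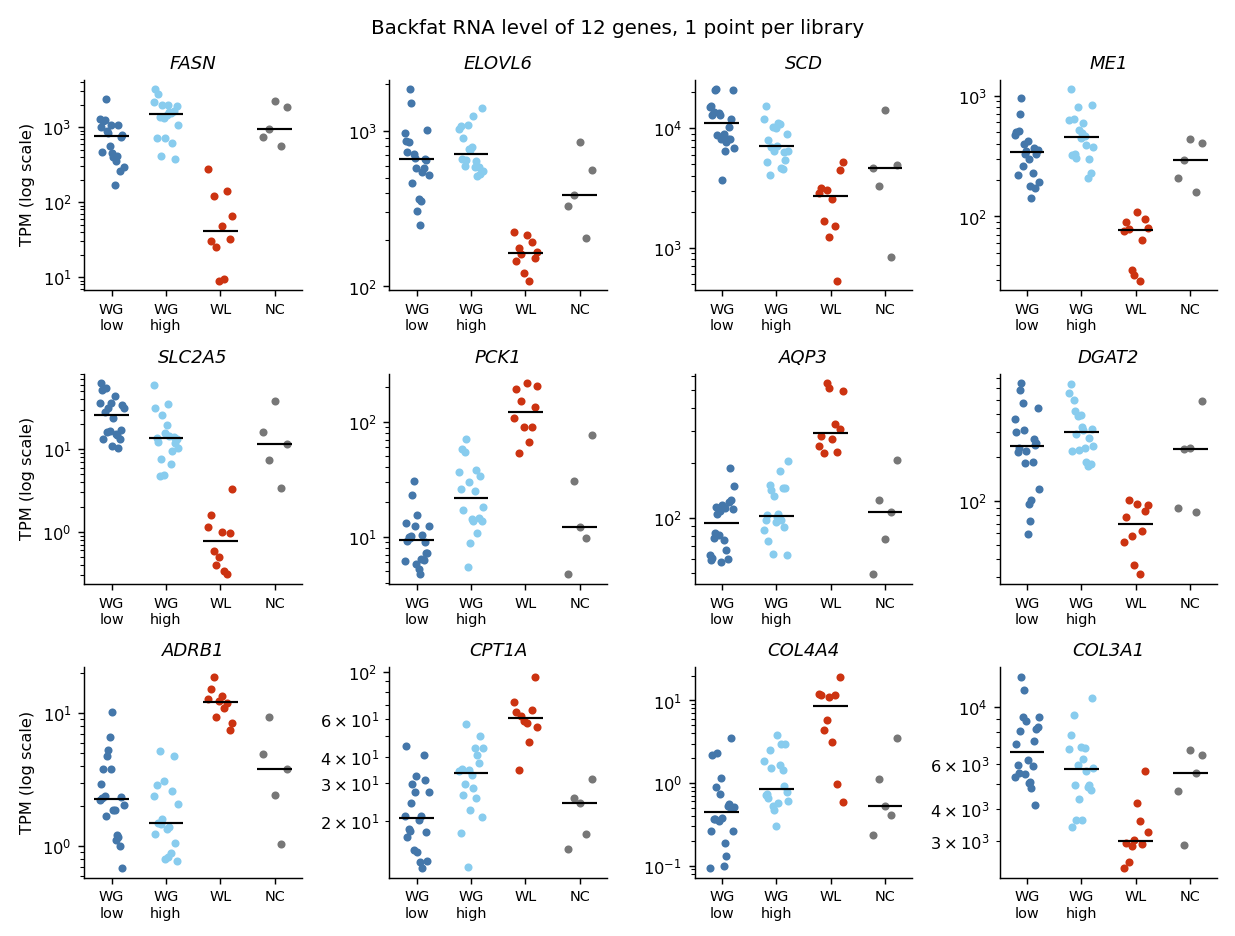
RNA level (TPM, log axis) of 12 genes in every backfat library, in the low and high WG sets, WL and NC, with 1 point per library and bars at the medians. FASN, ELOVL6, SCD, ME1, SLC2A5, DGAT2 and COL3A1 sit lower in WL (for FASN, medians of 40.7 TPM in WL and 1039 TPM in all WG), and PCK1, AQP3, ADRB1, CPT1A and COL4A4 sit higher.

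Among the genes of sugar uptake named here, the RNA of the fructose carrier had the largest fold change. SLC2A5 (GLUT5, chr6:69507829-69535794, whose window is printed above) was at 4.80 to 62.6 TPM in WG (median 15.9) and 0.308 to 3.30 TPM in WL (median 0.786). No WL library overlapped WG, and the 5 NC libraries, at 3.41, 7.45, 11.6, 16.1 and 38.1 TPM, lay within or just below the WG range. It was 23.4-fold lower in WL (log2 fold change -4.55 ± 0.47, adjusted p = 1.3e-09), and its log2 fold change was -4.89 against the low set. Of 22 genes of insulin signalling and glucose uptake, 4 were called lower and none higher, and the same 4 were lower against the low set, where 2 further genes were lower and 1 was higher. The insulin-responsive carrier SLC2A4 (GLUT4) had medians of 40.4 TPM in WG and 20.6 TPM in WL (-0.92 ± 0.22, adjusted p = 0.0020). Hexokinase HK2, which traps glucose in the cell, had medians of 57.6 and 44.4 TPM (-0.74 ± 0.21, adjusted p = 0.0090). HK1 was at -0.62 ± 0.12 (adjusted p = 0.00020). Without WL replicate 3 it was at -0.56, short of the fold limit.

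The route from pyruvate to citrate was lower. Of 17 genes of the tricarboxylic acid cycle and its entry, 5 were called lower and none higher, the same 5 against the low set among 8, and the median was -0.43 (-0.54 against the low set). PDHB, a subunit of pyruvate dehydrogenase, was at 144 to 1087 TPM in WG (median 308) and 112 to 187 TPM in WL (median 135). Its log2 fold change was -1.35 ± 0.27 (adjusted p = 0.00023) and -1.84 ± 0.17 against the low set (adjusted p = 1.8e-09), and all 10 WL libraries lay below every library of that set, which held for 0.425% of all genes. PDHA1 and DLAT, subunits of the same complex, were at -1.04 and -0.73. Citrate synthase (CS) was at 167 to 362 TPM in WG and 123 to 196 TPM in WL (-0.66 ± 0.09, adjusted p = 1.4e-06), and SUCLG2, a subunit of succinyl-CoA ligase, at -0.64 ± 0.09 (adjusted p = 1.9e-06).

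Breakdown of branched-chain amino acids, which in fat feeds carbon into lipogenesis, was lower in 7 of 17 genes and higher in none, with a median of -0.55. Against the low set 12 were lower, these 7 among them, and the median was -0.69. BCKDHB, a subunit of the branched-chain ketoacid dehydrogenase, was at 22.2 to 80.4 TPM in WG (median 42.5) and 19.5 to 31.2 TPM in WL (median 26.4), a log2 fold change of -0.97 ± 0.21 (adjusted p = 0.00062). MCCC2, of leucine breakdown, was at -1.12 ± 0.23 (adjusted p = 0.00050), and PCCA, which carboxylates propionyl-CoA, at -0.63 ± 0.12 (adjusted p = 0.00012).

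Respiratory chain genes depended on the WG set. Of 58 nuclear-encoded genes tested, 8 were called lower and none higher against all WG libraries, with a median of -0.40. Against the low set 35 were lower and none higher, with a median of -0.68, and 5 genes were lower in both. Against the high set 12 were higher and 4 lower, with a median of 0.14. NDUFB9, of complex I, was at 163 to 402 TPM in WG and 133 to 229 TPM in WL (-0.74 ± 0.16, adjusted p = 0.00052), and ATP5F1C, of ATP synthase, at -0.67 ± 0.18 (adjusted p = 0.0074). Against the low set all 10 WL libraries lay below every WG library for both genes (-1.06 and -1.07). The 12 mitochondria-encoded genes tested were all called lower against all WG libraries (median -3.11), and 1 of 12 was lower against the low set (median -0.63). The sets were defined by these same transcripts, so their values are a description. That 1 gene was COX1, named after its values were seen, which was at 6379 to 30565 TPM in WG, 6379 to 26360 TPM in the low set and 3336 to 12639 TPM in WL. ND4, with the largest fold change among the lower genes, was at 60.1 to 1802 TPM in the low set (median 301) and 48.9 to 586 TPM in WL (median 333). Cytosolic ribosomal protein genes, 46 in all, had no call in either direction against all WG libraries and 15 lower calls against the low set, and 14 were higher and 1 lower against the high set.

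**Figure D3:**
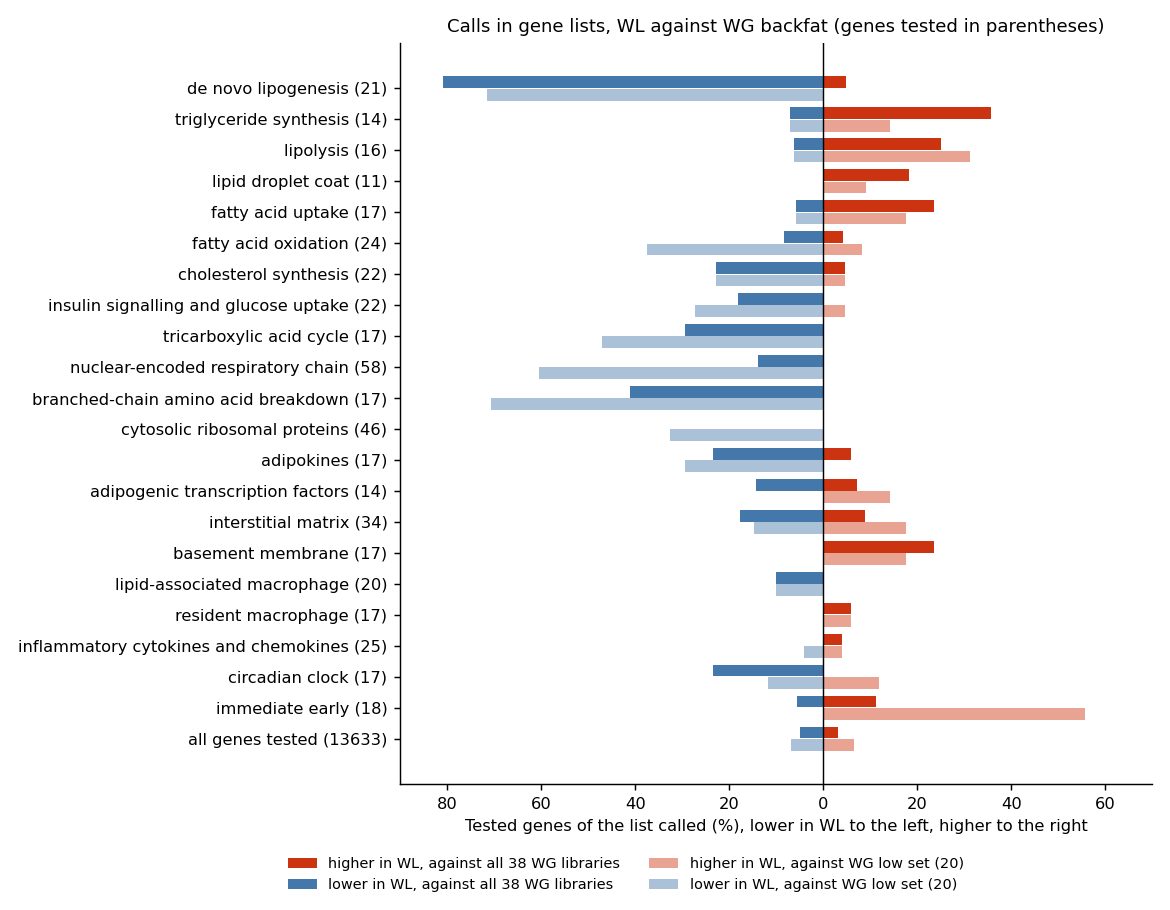
Percent of the tested genes of each list called lower (left, blue) or higher (right, red) in WL, against all 38 WG libraries (dark) and against the 20 of the low set (light), with all genes tested at the bottom. De novo lipogenesis has 17 of 21 genes lower in the first fit and 15 in the second, against 4.9% and 6.87% of all genes. Immediate early genes have 2 of 18 higher in the first fit and 10 in the second.

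Triglyceride synthesis did not follow lipogenesis. Of 14 genes, 5 were called higher and 1 lower, and 2 were higher and 1 lower in both fits. The 2 higher in both were PCK1 and AQP3, and the 1 lower was DGAT2. The other higher calls, DGAT1 among them, were not made against the low set. PCK1 (chr17:57930507-57936523), which makes the glycerol phosphate backbone from non-sugar carbon in fasting fat, was at 4.75 to 70.6 TPM in WG (median 12.9) and 53.7 to 216 TPM in WL (median 120). It was 6.68-fold higher in WL (log2 fold change 2.74 ± 0.29, adjusted p = 1.7e-09). Against the low set, every library of which lay below WL, the log2 fold change was 3.43 ± 0.24. The NC libraries were at 4.71, 9.84, 12.2, 30.4 and 77.05 TPM. AQP3, a glycerol channel, was at 57.7 to 204 TPM in WG (median 103) and 229 to 549 TPM in WL (median 294), without overlap (1.62 ± 0.17, adjusted p = 1.3e-09). NC libraries were at 49.2, 76.5, 108, 126 and 208 TPM. The 2 acyltransferases of the last step went opposite ways. DGAT2 was at 59.8 to 650 TPM in WG (median 259) and 31.3 to 102.3 TPM in WL (median 69.9), with a log2 fold change of -2.16 ± 0.28 (adjusted p = 2.3e-07). DGAT1 was at 6.54 to 18.01 TPM in WG (median 10.3) and 13.3 to 24.7 TPM in WL (median 20.5), at 0.81 ± 0.14 (adjusted p = 2.3e-05), and at 0.54 against the low set (adjusted p = 0.00060), under the fold limit. DGAT1 overlaps HSF1 by 135 bases in the annotation.

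Of 16 lipolysis genes, 4 were called higher and 1 lower, and 5 and 1 against the low set, with 2 higher and 1 lower in both. The higher calls were the receptor genes ADRB1 and NPR3 and the lipase inhibitor genes G0S2 and HILPDA (1.25, adjusted p = 0.024, a call lost without WL replicate 7 at 1.13), while the receptor gene ADRA2A was at -0.83 (adjusted p = 0.057). ADRB1, the beta-1 adrenergic receptor, was at 0.685 to 10.3 TPM in WG (median 1.96) and 7.51 to 18.8 TPM in WL (median 12.2). The 5 NC libraries were at 1.03, 2.41, 3.83, 4.96 and 9.44 TPM. It was 4.45-fold higher in WL (2.15 ± 0.28, adjusted p = 1.6e-07), with 7 of 10 WL libraries above all of WG. NPR3, the clearance receptor that removes natriuretic peptides, was also higher, with medians of 19.4 and 71.7 TPM (1.52 ± 0.24, adjusted p = 7.2e-06). Cyclic AMP phosphodiesterase PDE3B, through which insulin restrains lipolysis, was lower at -0.59 ± 0.12 (adjusted p = 0.00034), but ran from -0.58 to -0.57, under the fold limit, without WL replicate 3, 5, 6, 9 or 10.

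The lipases themselves had smaller differences. LIPE, hormone-sensitive lipase, was at 161 to 725 TPM in WG (median 364) and 401 to 809 TPM in WL (median 597). Its log2 fold change of 0.58 ± 0.15 (adjusted p = 0.0068) fell just short of the fold limit, and it was called higher against the low set (0.75 ± 0.14, adjusted p = 0.00018). PNPLA2, which encodes ATGL, was at -0.26 ± 0.31 against all WG libraries (adjusted p = 0.59) and was called higher against the low set, at 0.79 ± 0.16 (adjusted p = 0.00026), where its medians were 73.0 and 163 TPM. G0S2, an inhibitor of ATGL, was called higher against all WG libraries (1.45 ± 0.46, adjusted p = 0.021). It was at 0.69 against the low set (adjusted p = 0.12), and the call was lost without WL replicate 5 or 8. Perilipin 1 (PLIN1), the coat protein of large lipid droplets, was at 510 to 1105 TPM in WG (median 762) and 858 to 2198 TPM in WL (median 1228), at 0.69 ± 0.11 (adjusted p = 7.1e-06). It was at 0.51, short of the fold limit, without WL replicate 3. Of 11 droplet coat genes 2 were called higher and none lower, and 1 and none against the low set.

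Among 17 genes of fatty acid uptake, 4 were called higher and 1 lower, and 3 of these higher calls and the lower call were made in both fits. LPL, the lipoprotein lipase that frees fatty acids from blood lipoproteins, was at 748 to 2590 TPM in WG (median 1406) and 465.97 to 1350 TPM in WL (median 1005), a log2 fold change of -0.75 ± 0.15 (adjusted p = 0.00023). GPIHBP1, the protein that carries LPL to the capillary wall, was at 120 to 421 TPM in WG (median 214) and 161 to 659 TPM in WL (median 507), at 0.88 ± 0.18 (adjusted p = 0.00025), and 7 of 10 WL libraries lay above all of WG. ANGPTL4, an inhibitor of LPL that fasting raises in fat, was at medians of 79.7 and 158 TPM (0.92 ± 0.30, adjusted p = 0.025). Its call was lost without WL replicate 4 (0.84) or 8 (0.80). SLC27A1, a fatty acid transporter, was at 0.70 ± 0.16 (adjusted p = 0.0011).

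CPT1A, which admits fatty acids into mitochondria, rose. It was at 12.0 to 57.0 TPM in WG (median 26.8), 34.8 to 94.4 TPM in WL (median 60.5) and 14.8, 17.3, 24.4, 25.6 and 31.3 TPM in NC. The log2 fold change was 1.05 ± 0.16 (adjusted p = 3.8e-06), and 1.23 against the low set. The other genes of fatty acid oxidation depended on the WG set. Of 24 genes of fatty acid oxidation, CPT1A was called higher and 2 were lower, with a median of -0.22. Against the low set 2 were higher and 9 lower, with a median of -0.34. Against the high set 7 were higher and 1 lower, with a median of 0.19. ECHS1, the hydratase of the short-chain spiral, was at medians of 258 and 129 TPM (-1.24 ± 0.26, adjusted p = 0.00059), and lay below every low-set library in all 10 WL libraries. DECR1, needed for unsaturated chains, was at -0.69 ± 0.14 (adjusted p = 0.00023).

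Of 22 genes of cholesterol synthesis, 5 were called lower and 1 higher, and the same 5 were lower in both fits, with list medians of -0.02 and -0.35. LSS, lanosterol synthase, was at 43.1 to 178 TPM in WG (median 95.3) and 27.9 to 53.2 TPM in WL (median 45.7), at -1.30 ± 0.20 (adjusted p = 4.9e-06). IDI1, of the isoprenoid steps, was at medians of 141 and 56.6 TPM (-1.51 ± 0.30, adjusted p = 0.00022). SC5D, a late enzyme of the path, was at -0.78 ± 0.15 (adjusted p = 0.00019).

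Of 17 adipokine genes 4 were called lower and 1 higher, and the 4 were lower in both fits. LEP, which encodes leptin, was at 126 to 1016 TPM in WG (median 595) and 509 to 838 TPM in WL (median 727), and NC had a median of 249 TPM. Its log2 fold change was 0.10 ± 0.20 against all WG libraries (adjusted p = 0.76) and -0.26 ± 0.13 against the low set (adjusted p = 0.12), so that no difference was detected. ADIPOQ, adiponectin, was at medians of 2404 and 4218 TPM (0.66 ± 0.16, adjusted p = 0.0021). It was at 0.53 without WL replicate 3 and at 0.52 against the low set, both under the fold limit. Angiotensinogen (AGT) was at medians of 181 and 103 TPM (-1.17 ± 0.26, adjusted p = 0.00093). ANGPTL8, which insulin and feeding raise, was at 0.159 to 9.38 TPM in WG and 0 to 1.195 TPM in WL (-1.75 ± 0.50, adjusted p = 0.011), and it lies inside DOCK6. LCN2, a lipocalin of inflamed fat, was at -1.80 ± 0.44 (adjusted p = 0.0029) and -0.73 against the low set (adjusted p = 0.034).

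PPARG, the master regulator of fat cells, was at 73.2 to 316 TPM in WG (median 206) and 121 to 216 TPM in WL (median 159), and no difference was detected (-0.40 ± 0.19, adjusted p = 0.14). No adipogenic transcription factor of 14 tested was called the same way in both fits.

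Matrix genes moved both ways. Of 34 interstitial matrix genes, 6 were called lower and 3 higher, and 3 and 3 in both fits. COL3A1, a fibrillar collagen, was at 3397 to 13105 TPM in WG (median 5925) and 2348 to 5641 TPM in WL (median 2986), at -1.12 ± 0.18 (adjusted p = 9.3e-06), with 7 of 10 WL libraries below all of WG. COL1A1 was at -2.39 ± 0.51 (adjusted p = 0.00071) against all WG libraries and -0.89 ± 0.29 (adjusted p = 0.019) against the low set. CILP, THBS2 and COL6A6 were the members called higher in both fits, at 0.88, 0.76 and 0.72. Of 17 basement membrane genes 4 were higher and none lower, and 3 were higher in both. COL4A4 was at 0.0930 to 3.81 TPM in WG (median 0.635) and 0.593 to 19.3 TPM in WL (median 8.47), 6.95-fold higher (2.80 ± 0.38, adjusted p = 4.9e-07). Its NC libraries were at 0.236, 0.413, 0.532, 1.13 and 3.48 TPM. COL4A3 moved with it, from a median of 0.277 to 2.53 TPM (2.46 ± 0.34, adjusted p = 6.4e-07). Both encode chains of the collagen IV network known from the kidney and lie head to head on chr15, sharing 663 bases at their starts. COL4A4 also shares 26924 bases with RHBDD1, on the other strand. In 7 of 10 WL libraries COL4A4 lay above all of WG, while the others lay within its range.

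Counts of immune genes stand beside 3.22% higher and 4.9% lower of all genes. Of 25 inflammatory cytokines and chemokines tested, IL10, an anti-inflammatory cytokine, was the only call against all WG libraries, at 0.310 to 2.49 TPM in WG and 1.31 to 4.64 TPM in WL (1.10 ± 0.22, adjusted p = 0.00023). None of 20 markers of lipid-associated macrophages was called higher and 2 were lower, among them MMP12, a macrophage elastase, at medians of 1.57 and 0.298 TPM (-2.27 ± 0.38, adjusted p = 2.5e-05). Of these 2, only MMP12 was lower in both fits, and the sums of the list had medians of 6056 TPM in WG and 6144 TPM in WL. Of 17 resident macrophage markers 1 was called higher and none lower, and none in both fits. Their sums had medians of 1249 TPM in WG and 1780 TPM in WL, with overlapping ranges. S100A8, of neutrophils and inflamed macrophages, was at 4.93 to 136 TPM in WG and 1.73 to 25.6 TPM in WL (-2.08 ± 0.48, adjusted p = 0.0014). Complement C7 rose, from a median of 16.4 to 78.1 TPM (1.76 ± 0.29, adjusted p = 1.5e-05), and C5 fell by 1.01 on the log2 scale (adjusted p = 0.00079). Both were called in both fits.

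Further members with the same call in both fits came from smaller lists. DPP4, a marker of fat progenitors, was at 1.16 to 6.45 TPM in WG and 4.81 to 14.2 TPM in WL (1.06 ± 0.17, adjusted p = 8.1e-06), while PI16, of the same kind of cell, was lower (-0.94 ± 0.22, adjusted p = 0.0018). The progesterone receptor gene PGR was higher (1.11 ± 0.18, adjusted p = 9.6e-06) and the glucocorticoid-responsive factor KLF9 lower (-1.12 ± 0.18, adjusted p = 8.4e-06), with medians of 154 TPM in WG and 63.4 TPM in WL. CIART, a repressor of the circadian clock, was at 9.79 to 33.3 TPM in WG and 4.05 to 11.7 TPM in WL, and 9 of 10 WL libraries lay below all of WG (-1.31 ± 0.16, adjusted p = 1.1e-07). Hours of sampling were not used here, so a part of the time of day in the clock genes was not tested. DDIT3, a stress-induced factor also known as CHOP, was at medians of 50.3 and 112 TPM (0.96 ± 0.15, adjusted p = 6.9e-06). CHAC1, a glutathione-degrading enzyme that acts downstream of the same stress response, was lower, at medians of 8.44 and 1.09 TPM (-2.84 ± 0.50, adjusted p = 4.5e-05).

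Immediate early genes, which handling and tissue removal can induce, also depended on the WG set: 2 of 18 were called higher and 1 lower against all WG libraries, 10 higher and none lower against the low set, and 1 higher and 6 lower against the high set. NR4A3 was at 1.41 to 107 TPM in all WG libraries, 1.86 to 14.6 TPM in the low set and 14.7 to 82.1 TPM in WL, so that its log2 fold change was 1.02 ± 0.39 (adjusted p = 0.063) in one fit and 2.09 ± 0.27 (adjusted p = 5.9e-07) in the other. The clock repressor NR1D1, which overlaps THRA, was called lower against all WG libraries (-3.17 ± 0.84, adjusted p = 0.0062) and was at 0.02 ± 0.40 against the low set (adjusted p = 0.97). In all, 12 genes were called in opposite directions in the 2 fits, every one lower against all WG libraries and higher against the low set, among them the transcription factor genes SP2 and TCF7L2 and the coactivator gene CRTC2.

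In 5 genes every WL library lay above every WG library, and in another 5 below (0.0367% of genes each). These were picked on that pattern, and their values are a description. The higher genes were AQP3, GUCY1A2, a subunit of the nitric oxide receptor (8.20 to 26.7 TPM in WG and 28.3 to 52.4 TPM in WL), SMAD6, an inhibitor of BMP signalling (4.27 to 16.2 and 17.7 to 36.7 TPM), the phosphatase gene PTPN4 (10.97 to 37.7 and 38.5 to 59.7 TPM) and the receptor gene GPR153 (3.05 to 12.98 and 13.2 to 27.4 TPM). The lower genes were ELOVL6, ME1, SLC2A5, ODAD4, known from motile cilia (19.3 to 86.4 TPM in WG and 4.34 to 15.8 TPM in WL), and TBC1D20 (146 to 337 and 89.9 to 141 TPM). As a ratio, PTPN4, GPR153 and TBC1D20 were separated by the smallest gaps.

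The response in backfat was then set against that in the 3 visceral tissues of the same study, GOM, MAD and RAD, by an interaction term. Of 14445 genes, the difference passed the limits in 203 (1.41%), with the response higher in backfat in 91 (0.63%) and lower in 112 (0.775%). None of the 21 lipogenesis genes was among them, and their median log2 fold changes were -1.05 in ULB and -1.05, -1.19 and -0.81 in GOM, MAD and RAD. The tissues share pigs. With the pig as a term 556 genes passed, 192 of the 203 among them, and against RAD alone 32 genes passed. In the libraries of the low set 176 passed, 128 of them among the 203.

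Backfat calls with the smallest interaction p against the mean of the visceral tissues were then described. Against RAD alone, 4 of these 10 genes no longer passed the limits: GGCX (0.49), GPC3 (0.51), HPSE (-1.03) and NT5C3B (-0.76). TLN1, which links integrins to actin, was at 148 to 359 TPM in WG backfat and 332 to 680 TPM in WL backfat, a log2 fold change of 0.85 in the joint fit against 0.00 in GOM, -0.11 in MAD and 0.21 in RAD (difference 0.82 ± 0.12, adjusted p = 8.5e-07). GPC3, a glypican, was at 0.90 in ULB and -0.14, -0.05 and 0.39 in GOM, MAD and RAD, of which RAD had an adjusted p of 0.026 (difference 0.83 ± 0.14, adjusted p = 3.7e-05). GUCY1A2 had positive estimates in all 4 tissues and the highest in ULB, at 1.24 against 0.49 in GOM (adjusted p = 0.0010), 0.29 in MAD and 0.52 in RAD (adjusted p = 0.00081), a difference of 0.81 ± 0.13 (adjusted p = 2.2e-05). GGCX, the vitamin K-dependent carboxylase, was at 0.63 in ULB and -0.11, -0.56 and 0.14 elsewhere (difference 0.80 ± 0.13, adjusted p = 3.8e-06). Its own call in ULB was lost without WL replicate 2 (0.57). RSC1A1 was at 0.64 in ULB and between -0.33 and -0.06 elsewhere (difference 0.82 ± 0.13, adjusted p = 3.8e-06). It shares 261 bases with PLEKHM2 on the same strand, so that reads there are uncertain.

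The log2 fold change of WL over WG was lower in backfat than the visceral mean for HPSE, LIPG, MYLIP, NT5C3B and ZNF599. HPSE, the heparanase, was at -1.45 in ULB, 0.75 in GOM, 2.63 in MAD and -0.42 in RAD (difference -2.44 ± 0.41, adjusted p = 3.5e-05). Endothelial lipase, LIPG, was at -1.12 in ULB and at 0.25, 0.92 and 1.52 in GOM, MAD and RAD (difference -2.02 ± 0.38, adjusted p = 0.00017). MYLIP, which directs the LDL receptor to degradation, was at -0.70 in ULB and between 0.16 and 0.34 elsewhere (difference -0.95 ± 0.16, adjusted p = 5.3e-05). NT5C3B was at -0.86 in ULB and between -0.10 and 0.14 elsewhere (difference -0.91 ± 0.17, adjusted p = 0.00012). ZNF599 rested on a few WG libraries: its range was 1.41 to 454 TPM in WG around a median of 2.63, and 1.88 to 3.79 TPM in WL. Its difference of -3.36 ± 0.61 (adjusted p = 0.00012) became -0.74 with the pig as a term (adjusted p = 0.20), and its ULB call was lost without WL replicate 4, 5 or 9.

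**Figure D4:**
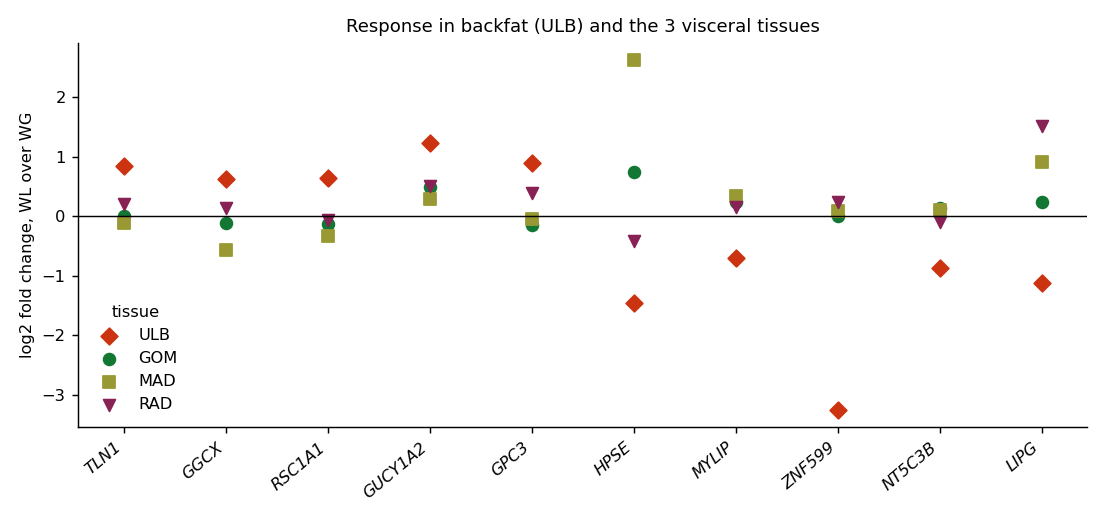
log2 fold change of WL over WG in backfat (ULB, diamonds) and in GOM, MAD and RAD for the 5 genes with the smallest interaction p in each direction among backfat calls. For TLN1 the backfat value is 0.85 and the visceral values are 0.00, -0.11 and 0.21. HPSE is at -1.45 in ULB and 2.63 in MAD.

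Chromosome compartments were compared through the A-B index, which is positive in open (A) and negative in closed (B) chromatin, over 113298 bins of 20 kb. Bins that kept their compartment and differed by more than 0.75 at an adjusted p below 0.05 (limma), called A/B variables by the study, numbered 10254 (9.05%), with 2396 higher in WL (2.11%) and 7858 lower (6.94%). Of the lower bins 98.2% lay in B, and of the higher bins 1956 lay in A. The index as a whole was stretched in WL: its SD over bins was 2.91 to 3.51 in WL libraries (median 3.23) and 2.66 to 3.27 in WG libraries (median 3.01). The mean index of A bins went from 2.49 to 2.66 and that of B bins from -2.50 to -2.77. After quantile normalization between libraries, which removes that stretch, these mean differences were -0.0040 and 0.0037, and 2847 bins were called (2.51%), with 1731 higher (1.53%) and 1116 lower (0.985%). The share called higher thus went from 23.4% to the majority. In both forms 1762 bins were called, of which 57.1% were higher.

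Switches between compartments were rare. Only 43 bins were in different compartments in over 80% of the libraries of each group, 36 of them in A in WL and 7 in B. None held the start of a tested gene with a symbol. In 511 bins the share of libraries in A went from at most 30% to at least 70% (408 bins) or the reverse (103 bins).

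The bins of gene starts with the largest index differences did not in general hold genes that changed in RNA. Highest in WL was the bin of CFAP46, a ciliary gene on chr14, at 0.73 ± 0.68 (SD, n = 39) in WG, 2.50 ± 0.51 (n = 10) in WL and 0.62 ± 0.49 (n = 5) in NC. Its difference was 1.77 as deposited (adjusted p = 7.1e-08, limma) and 1.56 after quantile normalization, while its RNA was at -0.28 (adjusted p = 0.40). HSD11B1, which regenerates cortisol within fat, lay in a bin on chr9 at 3.07 ± 0.56 in WG and 4.45 ± 0.61 in WL (difference 1.38, adjusted p = 6.2e-07), and 7 of 10 WL libraries lay above all of WG. Its RNA was at 0.51 (adjusted p = 0.078), which was not called. G0S2 starts 8668 bases from it, and its own bin was at 2.68 ± 0.56 in WG, 3.49 ± 0.35 in WL and 2.18 ± 0.50 in NC (difference 0.81, adjusted p = 0.00057). For LMO1, also on chr9, all 10 WL libraries lay above all 39 WG libraries (means of 0.63 and 1.98), with RNA at 0.38 (adjusted p = 0.19).

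Among the lowest bins were DCDC2 and NRSN1, genes 17002 bases apart on chr7, where index and RNA went the same way. The bin of DCDC2 was at -0.78 ± 0.58 in WG, -2.10 ± 0.68 in WL and -1.14 ± 0.57 in NC (difference -1.32, adjusted p = 3.4e-06), and its RNA was at -1.02 (adjusted p = 0.012). The bin of NRSN1 was at -2.61 ± 0.56, -3.87 ± 0.37 and -2.72 ± 0.67 (difference -1.26, adjusted p = 9.1e-07), and its RNA was at -1.17 (adjusted p = 0.019). Both remained A/B variables after quantile normalization, at -1.18 and -0.83. In all, 19 genes had an A/B variable at the start and an RNA call in the same direction. Of 179 tested genes that start in a bin higher in WL, 13 had higher RNA (7.26%) and 11 lower (6.15%), against 3.22% and 4.9% of all genes. Of 105 that start in a bin lower in WL, 6 had higher RNA and 6 lower.

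**Figure D5:**
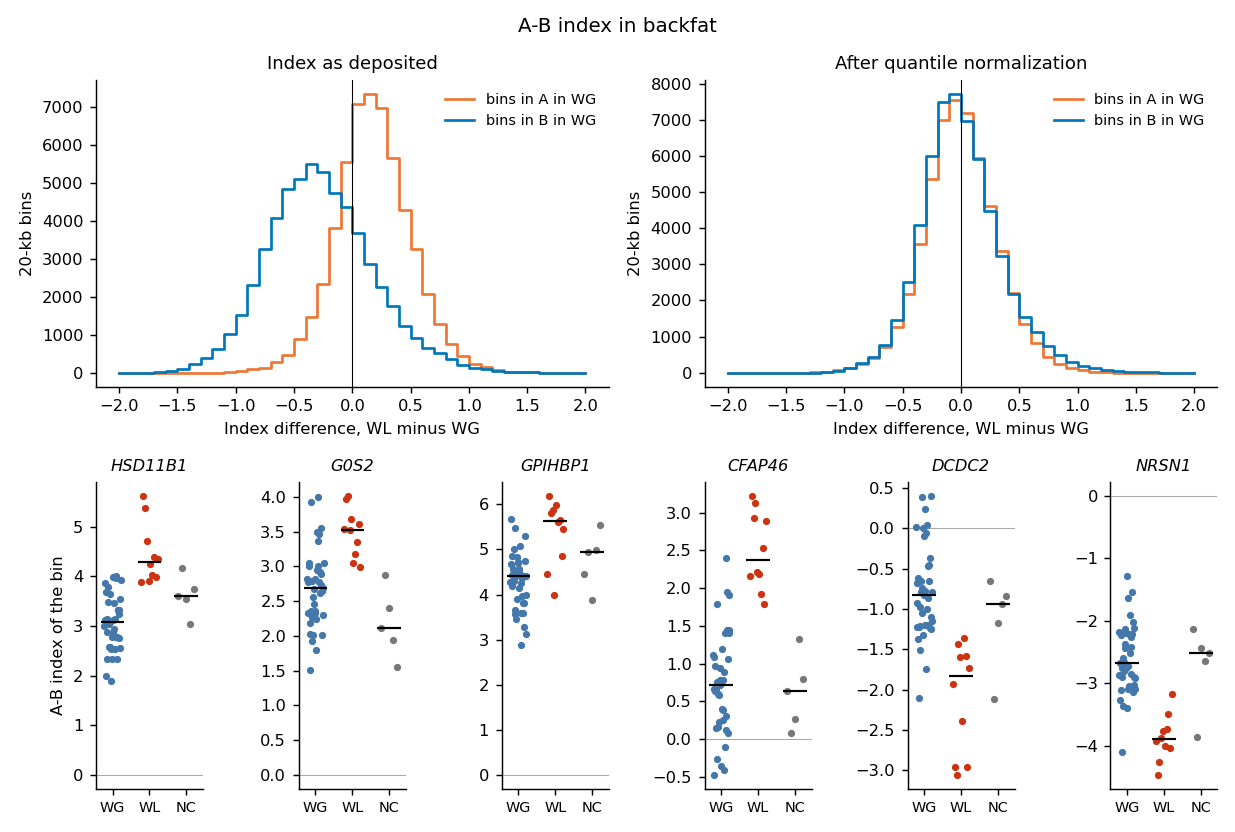
Top, bins of 20 kb by the difference in mean A-B index (WL minus WG), for bins in A and in B in WG, as deposited (left) and after quantile normalization (right). The 2 curves part in the first (means of 0.178 and -0.273) and overlap in the second. Bottom, the index of the bin at the start of 6 genes in each WG, WL and NC library, with bars at the medians, higher in WL for HSD11B1, G0S2, GPIHBP1 and CFAP46 and lower for DCDC2 and NRSN1.

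At 3 lipogenic enzymes no index difference was detected. The bin of FASN was at 5.15 ± 0.33 in WG and 5.02 ± 0.57 in WL (difference -0.13, adjusted p = 0.50), that of SCD at 1.73 ± 0.59 and 1.74 ± 0.41 (adjusted p = 0.97) and that of ELOVL6 at 1.40 ± 0.65 and 1.44 ± 0.56 (adjusted p = 0.91). Over all bins 33.4% were at an adjusted p below 0.05 as deposited and 15.1% after quantile normalization. SLC2A5 was lower by both readouts, with an index of 4.61 ± 0.38 in WG and 4.13 ± 0.54 in WL (difference -0.48, adjusted p = 0.0098, and -0.64 after quantile normalization, adjusted p = 0.00020). GPIHBP1 was higher by both, at 4.29 ± 0.63 and 5.39 ± 0.72 (difference 1.09, adjusted p = 0.00015, and 0.93 after quantile normalization, adjusted p = 0.0029). For PCK1 and ADRB1 the differences of 0.51 (adjusted p = 0.011) and 0.48 (adjusted p = 0.013) were at adjusted p values of 0.22 and 0.24 after quantile normalization. Index and RNA parted at THRSP, whose bin was higher by 0.77 (adjusted p = 0.0076) while its RNA was lower, and at ECHS1, whose bin was higher by 0.82 (adjusted p = 0.0032). SORCS1, a sorting receptor gene higher in RNA (medians of 1.14 and 6.35 TPM, log2 fold change 2.11), lay in a bin that was lower by 0.81 as deposited (adjusted p = 8.8e-05) and by 0.23 after quantile normalization (adjusted p = 0.32).

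Enhancer regions from H3K27ac ChIP-seq, a mark of active enhancers and promoters, were deposited from pooled libraries, 2 pools of WG and 1 each of WL and NC, and so gave no test. The WG pools were labelled as sub-groups of WG. For its pooled Hi-C data, the study formed WG sub-groups by the similarity of their estimated cell composition, and pooled WL and NC by group. The pools also differed in their number of libraries, with the fewest in WL. The part of either in the counts and ranks was not tested. WL had 25311 regions, NC 19558 and the WG pools 19753 and 19395, and 1652, 998, 708 and 788 of these were ranked as super-enhancers. At SLC2A5, a region within 10 kb ranked 118th in NC, where it was a super-enhancer, and 18794th and 6134th in the WG pools, and WL had none. FASN ranked 566th in NC, 452nd and 1807th in WG and 2871st in WL. PCK1 ranked 2397th in WL and 11118th and 5360th in WG, with 2460th in NC. At CPT1A the rank was 950th in WL, where it was a super-enhancer, and 744th and 999th in WG, where it was not. TKT was at a super-enhancer in all 4 pools.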

How the data were processed

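RNA-seq reads were quantified by the authors with kallisto 0.43.0, with a strand setting, on protein-coding, lncRNA and TUCP transcripts of Sscrofa11.1, and the deposited tables hold estimated counts and TPM per gene. The authors made the A-B index, a score per 20-kb bin of the autosomes, from Hi-C contacts aligned with Juicer, and deposited ROSE ranks of H3K27ac signal in regions stitched within 12.5 kb, from pooled libraries (BWA 0.7.15, SAMtools 1.3.1). Their tables held 9 columns that match no sample, which were not used. Symbols were given for 14819 of 21280 PCGs. Of 104 named genes with a place in the annotation, 11 overlapped another gene with a symbol.

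Estimated counts were rounded. PCGs were kept where 80% or more of either group exceeded 0.5 TPM, and were tested with edgeR 4.0.16 in R 4.3.3 (TMM, quasi-likelihood, 2-sided, Benjamini-Hochberg over all genes). The indices were compared with limma 3.58.1 over all bins. DESeq2 1.42.0 and further alternatives are given in the closing section. On simulated counts for the 13633 genes of WL against WG, the test recovered 37.3% of genes changed 1.5-fold, 82.1% of those changed 2-fold and 98.5% of those changed 4-fold. Recovery meant an adjusted p below 0.05 in the right direction, without the fold limit of a call. Genes with the lowest counts were not among those changed, and the 2 WG sets were not simulated. The p-values of WL against WG measure the spread between single pigs within a group. In WG this spread includes the difference between the 2 sets. By the same limits 6258 of 14132 genes were called between the high and low WG sets, which were chosen after seeing the data. The interaction fit without the pig as a term takes the tissues of a pig as independent libraries. No 2 libraries of a group correlated above 0.979, and none was taken for a copy.

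Genes were named by a rule: the 10 called genes with the largest fold change each way at a mean of at least 5 TPM, up to 5 members of each list with the smallest p and members a list is known for, the 5 backfat calls with the smallest interaction p each way, and the 5 bins with the largest index difference each way that hold a gene start. DLAT, BCKDHB, ATP5F1C, COL6A6, the genes without overlap and those called in opposite directions were named after their values were seen. Some genes under this rule are not reported here. The members and lists were chosen with earlier results of these data known.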

Additional observations from a re-analysis of the deposited data

Results flagged for a closer look

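Among 119 named genes in the WL and NC groups, 238 groups in all, 15 held 1 library far from the others by Dixon's test, where chance gives about 1 in 20. In WL, replicate 3 was high for SREBF1 (56.1 TPM against a group median of 15.6), PLIN1 (2200 against 1230 TPM) and NR1D1 (5.03 against 1.12 TPM). Replicate 1 was high for FASN (279 against 40.7 TPM), replicate 2 for IDH1 (1870 against 927 TPM), replicate 6 for GPR153 (27.4 against 15.1 TPM), replicate 8 for NRIP3 (307 against 29.5 TPM), replicate 9 for KLF9 (175 against 63.4 TPM) and replicate 10 for SLC2A5 (3.30 against 0.786 TPM). Replicate 7 was low for PGD (97.3 against 161 TPM). In NC, replicate 2 was high for ZNF599 (1480 against 42.8 TPM) and CHAC1 (13.6 against 4.47 TPM), replicate 5 for ANGPTL8 (2.35 against 0.399 TPM), replicate 7 for NPR3 (62.6 against 14.97 TPM) and replicate 12 for COL4A4 (3.48 against 0.532 TPM).

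The WL response in backfat differed from the mean visceral response, by the interaction term, in the 10 genes chosen for it. The difference on the log2 scale was 0.82 for TLN1, 0.80 for GGCX, 0.82 for RSC1A1, 0.81 for GUCY1A2 and 0.83 for GPC3. It was -2.44 for HPSE, -0.95 for MYLIP, -3.36 for ZNF599, -0.91 for NT5C3B and -2.02 for LIPG.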

How the results depend on the processing

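The 1107 RNA calls of WL against WG became 1315 with DESeq2 (30.4% of them higher, against 39.7%), 1182 with the exact test of edgeR, 1090 with upper-quartile factors, 1330 without the TPM filter, 899 with the PCG share of TPM as a covariate, 885 without WL replicates 6 and 8 and 1008 without WL replicates 3, 4 and 10. They became 1833 against the low WG set and 4898 against the high set. Within the low set they were 1996 without WL replicates 3, 4 and 10, 1864 with DESeq2 and 1844 with upper-quartile factors. Leaving out 1 WL library at a time gave 950 to 1128 calls, and 1598 to 1991 in the low set. The cause of these changes was not tested.

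Replicate numbers shared by WG and WL did not pair the libraries: of 9 shared numbers none had deviations correlated above 0.1 in RNA (r from -0.503 to 0.0969), and 2 of 9 did in the index. With the replicate block, over those libraries only, 1090 genes were called, against 1767 without the block, and 6537 A/B variables against 7095. Of the 119 named genes 27 lost their call with the block.

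Against the low set 12 named genes changed direction: PNPLA2 (0.79), LEP (-0.26), NR1D1 (0.021), EGR3 (0.85), SP2 (0.80), CRTC2 (0.67), ATN1 (0.88), BAG3 (0.71), RBPMS2 (0.84), TCF7L2 (0.74), FAM222B (0.77) and ACTMAP (0.63). With the PCG share as a covariate PNPLA2 (0.016) and LEP (-0.14) did, and 31 of the 119 lost their call. With DESeq2, IDH1 (0.58) and ZNF599 (-0.75) lost their calls.

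The 203 interaction calls became 32 against RAD only and 556 with the pig as a block. The 10254 A/B variables became 2847 after quantile normalization, 26572 at a difference above 0.5, 9989 at an adjusted p below 0.01, 11953 without the 6 libraries with the fewest contacts and 7965 to 12988 without 1 WL library. The 511 compartment frequency changes became 112 at limits of 80% and 20%. WL had 10 libraries, the shallowest with 10.9 M counts.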
